A study of Mus musculus with 6 samples.

Results

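The potassium channel genes of the mouse were taken here as all genes whose symbol starts with Kcn in the deposited gene table. They numbered 99 of 27998 genes. Of these, 63 had at least 50 UMIs (unique molecular identifiers, 1 for each captured transcript tag) in the 6 matrices together and were kept for description. The 63 comprised 60 protein-coding genes and 3 noncoding RNAs (Kcnq1ot1, Kcnmb4os2 and Kcnd3os). The kept genes with the fewest UMIs were Kcnk12 with 53, Kcnn2 with 61 and Kcnh3 with 62, and the excluded genes with the most were Kcnmb2 with 46, Kcns1 with 46 and Kcnf1 with 45. By group, the kept genes were 14 of 17 voltage-gated pores, 3 of 8 EAG and ERG pores, 4 of 5 KCNQ pores, 5 of 10 silent subunits, 8 of 15 inward rectifiers, 8 of 14 tandem-pore channels, 3 of 5 large-conductance and 4 of 4 smaller calcium-activated channel genes, 2 of 3 sodium-activated and related pores, 3 of 5 Kcne, 3 of 4 Kcnip and 3 of 3 Kcnab accessory genes, 3 of 5 noncoding RNAs and 0 of 1 other gene. Among the 36 genes below the minimum, 5 had no UMI at all: Kcnh5, Kcnj6, Kcnk9, Kcnk16 and Kcnk18. Together the 99 genes held 162531 UMIs, or 0.0508% of all UMIs, and the top 10 genes held 73.1% of these. The noncoding Kcnq1ot1 alone had 45958 UMIs, followed by Kcnmb1 with 22027, Kcnab1 with 10251, Kcnj8 with 10069 and Kcnk3 with 8020.

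Potassium channels let potassium leave the cell and so pull the membrane potential towards negative values. In arterial smooth muscle this closes voltage-gated calcium channels and relaxes the vessel wall, while in endothelium it favours calcium entry and the spread of dilator signals to the muscle beneath. The family is built from voltage-gated pores (Kcna, Kcnb, Kcnc, Kcnd, Kcnh, Kcnq) with silent partner subunits (Kcng, Kcns, Kcnv), calcium-activated pores (Kcnma1, Kcnn), sodium-activated pores (Kcnt), inward rectifiers (Kcnj), tandem-pore leak channels (Kcnk) and accessory subunits (Kcnmb, Kcnab, Kcne, Kcnip).

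The series profiled single cells of aortas from C57B/6J mice aged 18 weeks, fed either a normal diet (control, 3 samples) or a high-fat diet (3 samples). Aortas were digested with collagenase, and the cells were run on a droplet platform that tags transcripts at the 3′ end. The labels do not say whether samples came from separate or pooled animals, nor how long the diet lasted, so each p-value weighs a difference against the variation among these samples alone, and that variation may be technical. Each transcript yields 1 tag whatever its length, so levels of different genes are compared per tag, in CPM (the UMIs of a gene scaled to a fixed total of UMIs).

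The files held 62838 cell barcodes, 6623 to 18138 per sample, with 41388034 to 83886418 UMIs per sample and a median of 3856 to 5955 UMIs per cell. The barcodes of each sample carried 2 suffixes, taken here as 2 wells, which the sample titles do not name. They were uneven in control sample 3, with 634 and 7986 barcodes. Samples shared between 26 and 127 barcodes with one another, at most 1.29% of the smaller sample. After filters on genes, mitochondrial share and doublets, 58034 cells remained, of which 47828 (82.4%) were assigned to a class by marker genes that include no Kcn gene. Classes are named from these markers only, and the short names used below stand for smooth muscle-like, pericyte-like cells and so on. The 9 classes with at least 20 cells in every sample were smooth muscle (11039 cells), pericyte (349), endothelial (2763), fibroblast (18435), macrophage (6513), T cell (1672), B cell (4960), mesothelial (717) and Schwann (286). Pericyte was the least distinct class: its cells showed a median of 5 smooth muscle markers, and 46.4% of them led their next best class by a small margin only. In the T cell class, 47.2% of cells carried only the minimum number of markers. Cells with markers of cartilage, epithelium, heart muscle and skeletal muscle were also present, none of which are cell types of the vessel wall. All values below are UMIs summed per sample and class, scaled to CPM, and given as mean ± SD over the 6 samples unless stated otherwise. In such sums a lower share of expressing cells and less RNA per cell cannot be told apart. Droplet libraries also carry free RNA from other cells, so each level is set beside those of the other classes.

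The kept genes differed widely in where they were highest. Schwann cells held the highest mean for 14 of the 63, pericytes for 12, fibroblasts for 9, smooth muscle for 8 and T cells for 6. Endothelium held it for 5, mesothelium for 5, macrophages for 4 and B cells for none. Schwann cells and pericytes were the smallest of the 9 classes. Genes led by pericytes included Kcnq5, Kcnj2 and Kcnj3, at only 4.16, 3.41 and 2.42 CPM, each with a lowest sample of 0 CPM. The share of all genes led by each class was not worked out, so these counts have no background to be read against. For 17 of the 63, the lowest sample of the highest class lay above the highest sample of the next class, against 14.6% of all genes with at least 50 UMIs within these classes, a minimum that 57 of the 63 met. These were Kcnmb1, Kcnab1 and Kcnma1 in smooth muscle, Kcnj8 in pericytes, Kcna5 and Kcnn3 in endothelium, Kcnk6 and Kcnk13 in macrophages, Kcnn4, Kcnc1 and Kcnk7 in T cells, Kcnd2 in mesothelium, and Kcna1, Kcna2, Kcna6, Kcnj10 and Kcnj12 in Schwann cells. For the other 46 kept genes the samples of the first and second class overlapped. Within each of the 6 samples the first class still lay above the second for 7 of these: Kcnq1ot1, Kcnt2 and Kcng4 in fibroblasts, Kcnk3 and Kcne4 in pericytes, Kcnj15 in smooth muscle and Kcng2 in macrophages. A mean of at least 10 CPM in some class was reached by 33 genes, and 30 stayed under it in all 9 classes. The highest of the 30 were Kcns3 in smooth muscle (9.62 CPM), Kcnk7 in T cells (8.38 CPM), Kcnn3 in endothelium (7.68 CPM), Kcnn2 in Schwann cells (7.13 CPM) and Kcna3 in T cells (6.24 CPM), and the rest had at most 4.48 CPM, the level of Kcne3 in macrophages. The smallest classes set the limits of detection: 3 UMIs corresponded to 9.92 to 20.2 CPM in a pericyte sample and to 13.9 to 40.0 CPM in a Schwann sample.

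**Figure D1:**
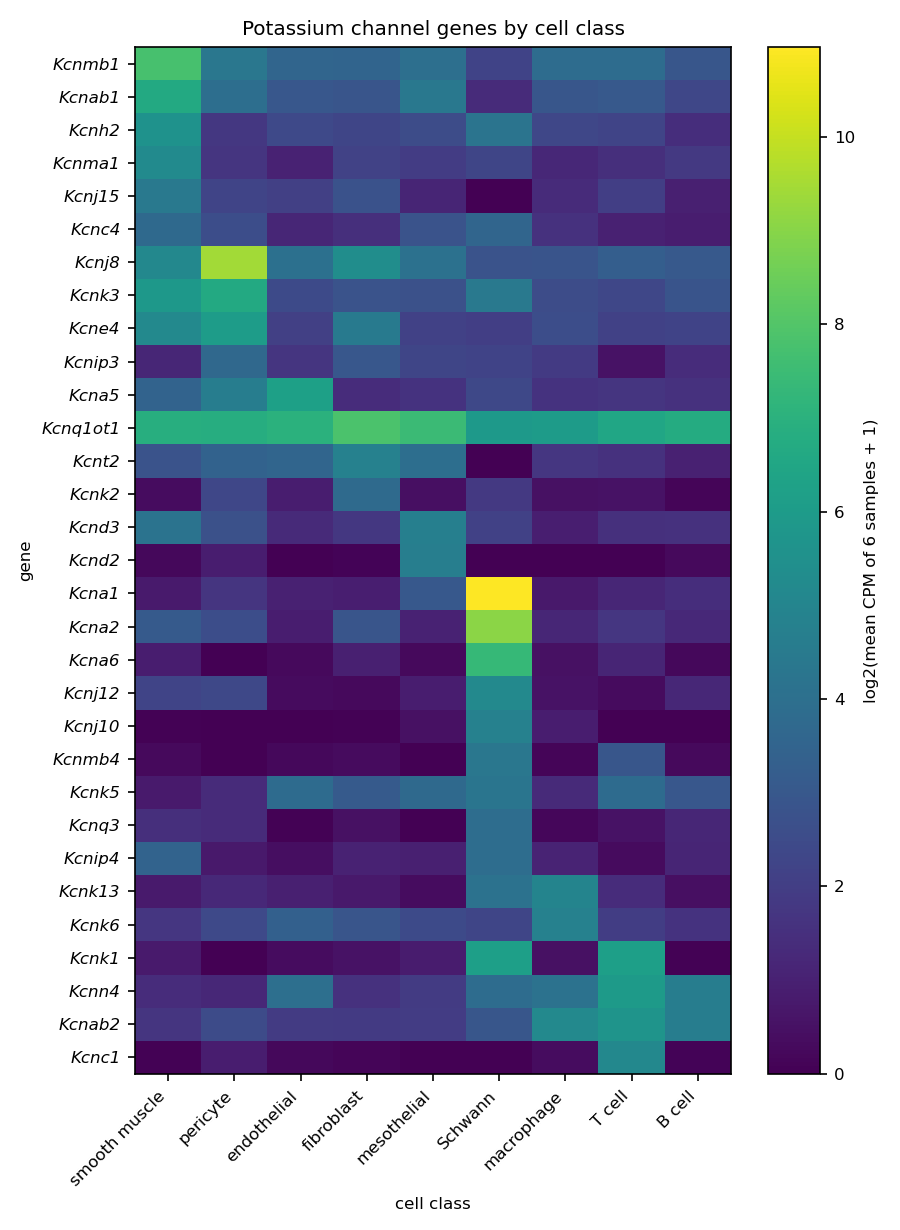
Mean CPM over 6 samples, drawn as log2(CPM + 1) in colour (brighter is higher), of 31 potassium channel genes that reach 10 CPM in a class (y axis) in the 9 marker-defined classes (x axis). The brightest tiles are Kcna1 in Schwann cells (1990.1 CPM) and Kcnj8 in pericytes (689 CPM), and Kcnq1ot1 is seen in every class.

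The 250 bases before the start of 4 genes are shown because each was highest in a different class among the 9 tested. These were Kcnmb1 in smooth muscle, Kcnj8 in pericytes, Kcna5 in endothelium and Kcnn4 in T cells. Kcnn4 was higher still in the pooled plasma cell-like cells, a class not tested, and was also high in parts of endothelium and macrophages. The sequences are from RefSeq on GRCm38.p6, given 5′ to 3′ on the strand of the gene. Kcnmb1 is chr11:33962763-33963012 (plus strand), Kcnj8 is chr6:142571615-142571864 (minus strand), Kcna5 is chr6:126535556-126535805 (minus strand) and Kcnn4 is chr7:24370013-24370262 (plus strand). Capitals mark a GC box, GGGCGG or its reverse complement.
Kcnmb1: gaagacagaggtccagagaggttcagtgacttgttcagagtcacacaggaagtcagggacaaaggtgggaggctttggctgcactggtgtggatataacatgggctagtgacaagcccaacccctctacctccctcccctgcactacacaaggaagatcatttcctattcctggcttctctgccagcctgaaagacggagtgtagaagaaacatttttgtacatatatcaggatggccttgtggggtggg
Kcnj8: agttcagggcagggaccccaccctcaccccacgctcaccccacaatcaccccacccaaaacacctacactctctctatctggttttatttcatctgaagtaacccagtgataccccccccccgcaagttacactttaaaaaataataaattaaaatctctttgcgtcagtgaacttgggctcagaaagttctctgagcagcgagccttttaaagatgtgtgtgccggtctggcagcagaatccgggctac
Kcna5: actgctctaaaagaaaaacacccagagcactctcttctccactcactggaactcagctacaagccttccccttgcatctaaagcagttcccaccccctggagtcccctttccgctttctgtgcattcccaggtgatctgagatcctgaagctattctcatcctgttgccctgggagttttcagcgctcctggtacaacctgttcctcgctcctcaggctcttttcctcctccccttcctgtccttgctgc
Kcnn4: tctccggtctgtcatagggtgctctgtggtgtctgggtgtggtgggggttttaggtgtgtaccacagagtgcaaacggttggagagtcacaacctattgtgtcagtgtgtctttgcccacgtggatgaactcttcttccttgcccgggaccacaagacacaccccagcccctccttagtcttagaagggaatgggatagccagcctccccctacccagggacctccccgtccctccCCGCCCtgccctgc
A start was listed for 46 of the 63 kept genes among 27025 genes in the table. Of 3 motifs searched on both strands, GGGCGG was found before 26 of the 46 members (56.5%), against 35.4% of all genes. TATAAA was found before Kcnj13 only, against 14.3% of all genes. The CArG box, the motif bound by serum response factor, was found before 0 of the 46 members and 1.62% of all genes. Kcnn4 had 1 GGGCGG match on the minus strand, 9 bases before its start, and Kcnmb1, Kcnj8 and Kcna5 had none of the 3. A missing match says only that these letters are not in this window.

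Smooth muscle was marked by the large-conductance calcium-activated channel (BK) and by several voltage-gated pores. Kcnmb1, the BK beta subunit of smooth muscle (chr11:33963013-33973641, GRCm38), stood at 212, 258 and 210.0 CPM in the control samples and 246, 213 and 182 CPM in the high-fat diet samples. All 6 samples lay well above those of every other class, where the highest single value was 39.8 CPM in pericytes. Kcnma1, the BK pore, stood at 38.9, 21.1 and 44.3 CPM in controls and 29.7, 44.9 and 40.3 CPM on high-fat diet, and had only 3 UMIs in all pericytes together. In edgeR's quasi-likelihood fit with samples as blocks, each class was set against the mean of the other 8, with Benjamini-Hochberg adjustment over 12798 genes. The fit tested 33 of the 63 kept genes. In smooth muscle, 17 of these were higher (34.8% of all genes tested were) and 8 were lower (26.9% of all genes tested). Kcnmb1 was higher by 4.76 on the log2 scale (SE 0.18, adjusted p = 2.31e-26) and Kcnma1 by 4.47 (SE 0.18, adjusted p = 6.39e-28, edgeR). The pore and its beta subunit were thus both highest in smooth muscle.

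The voltage-gated subunits of smooth muscle followed. Kcnab1, a beta subunit that joins Kcna pores, averaged 99.5 ± 19.6 CPM (lowest 77.8, highest 127) and was next highest in mesothelium at 19.96 ± 8.70 CPM, with no overlap of samples. Its class difference was 4.01 (SE 0.17, adjusted p = 1.62e-25, edgeR). Kcnh2, the ERG pore known for repolarisation of the heart, averaged 46.7 ± 9.28 CPM (36.5 to 57.9) and differed by 3.60 (SE 0.18, adjusted p = 1.44e-23, edgeR). Its next class was Schwann cells, where single samples reached 41.1 CPM, so the samples of these classes overlap. Kcnq5, a slow pore known to act in arterial tone, was at 3.16 ± 0.682 CPM in smooth muscle. It was too low for the class fit, with 6 UMIs in pericytes. Lower-level members of smooth muscle were Kcnd3, an A-type pore, at 16.9 ± 4.47 CPM, and Kcns3, a silent subunit that joins other voltage-gated pores, at 9.62 ± 1.11 CPM. Kcns3 was at 7.62 ± 1.80 CPM in fibroblasts, within the spread of the samples. Kcnip4, which binds Kcnd pores, was at 10.3 ± 1.78 CPM.

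The channels known for setting vascular tone through metabolism and leak were the strongest genes of the pericyte class. Kcnj8, the pore of the vascular KATP channel (chr6:142564837-142571614, minus strand, GRCm38), stood at 493, 962 and 806 CPM in control pericytes and 536, 406 and 929 CPM on high-fat diet. The lowest of these lay above all samples of every other class, since the highest fibroblast sample had 57.2 CPM and the highest smooth muscle sample 46.6 CPM. Kcnj8 averaged 40.9 ± 12.0 CPM in fibroblasts, 33.3 ± 9.62 CPM in smooth muscle and 15.3 ± 5.36 CPM in endothelium, and the first pair overlapped. In pericytes 6 of the 33 tested members were higher than in the other classes (12.1% of all genes tested were). Kcnj8 led with a difference of 5.59 (SE 0.19, adjusted p = 4.26e-28, edgeR), followed by Kcnk3 at 3.33 (SE 0.27, adjusted p = 4.3e-15) and Kcne4 at 3.15 (SE 0.32, adjusted p = 1.1e-11), with Kcna5 and Kcnip3 also among the 6. Kcnn4 was the 1 member that was lower (11.4% of all genes tested). Kcnj11, the other KATP pore of many tissues, had 3 UMIs in the whole series and none in pericytes or smooth muscle.

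Kcnk3, an acid-sensitive leak channel, was shared by both mural classes. It averaged 98.9 ± 29.0 CPM in pericytes (66.1 to 143) and 55.6 ± 11.4 CPM in smooth muscle (34.4 to 67.4), with overlapping samples. Kcne4, an accessory subunit that joins Kcnq pores, averaged 64.8 ± 32.9 CPM in pericytes, 34.7 ± 4.43 CPM in smooth muscle and 21.96 ± 6.07 CPM in fibroblasts. Set directly against each other in the same edgeR fit, smooth muscle and pericytes differed in 11 of the 33 tested members (28.1% of all genes tested did). Higher in smooth muscle were 8 (17.9% of all genes): Kcnh2 by 4.72 (SE 0.67, adjusted p = 1.1e-07), Kcnma1 by 4.42 (SE 0.60, adjusted p = 3.32e-08) and Kcnmb1 by 4.20 (SE 0.44, adjusted p = 1.62e-10), then Kcnip4, Kcnab1, Kcns3, Kcnj15 and Kcnd3. Higher in pericytes were 3 (10.2% of all genes): Kcnj8, at -4.04 for smooth muscle minus pericyte (SE 0.24, adjusted p = 3.7e-18), Kcnk2 at -3.23 (SE 0.99, adjusted p = 0.00973) and Kcnip3 at -2.74 (SE 0.63, adjusted p = 0.00055). Kcnk3 (-0.45, SE 0.25, adjusted p = 0.187) and Kcne4 (-0.48, SE 0.28, adjusted p = 0.208) were not called between the mural classes by edgeR. A count of 3 UMIs or fewer stands behind the pericyte levels of Kcnh2 and Kcnma1, so the sizes of these differences depend on the model. Kcnk2 and Kcnip3 also rested on few UMIs in pericytes, at 4.03 ± 5.94 and 12.2 ± 10.8 CPM. The highest pericyte sample of Kcnk2 had 15.3 CPM, from 3 UMIs. Smooth muscle markers summed to 4268 to 12385 CPM in pericyte samples, against 21302 to 34818 CPM in smooth muscle samples, and their part in the mural comparison was not tested.

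**Figure D2:**
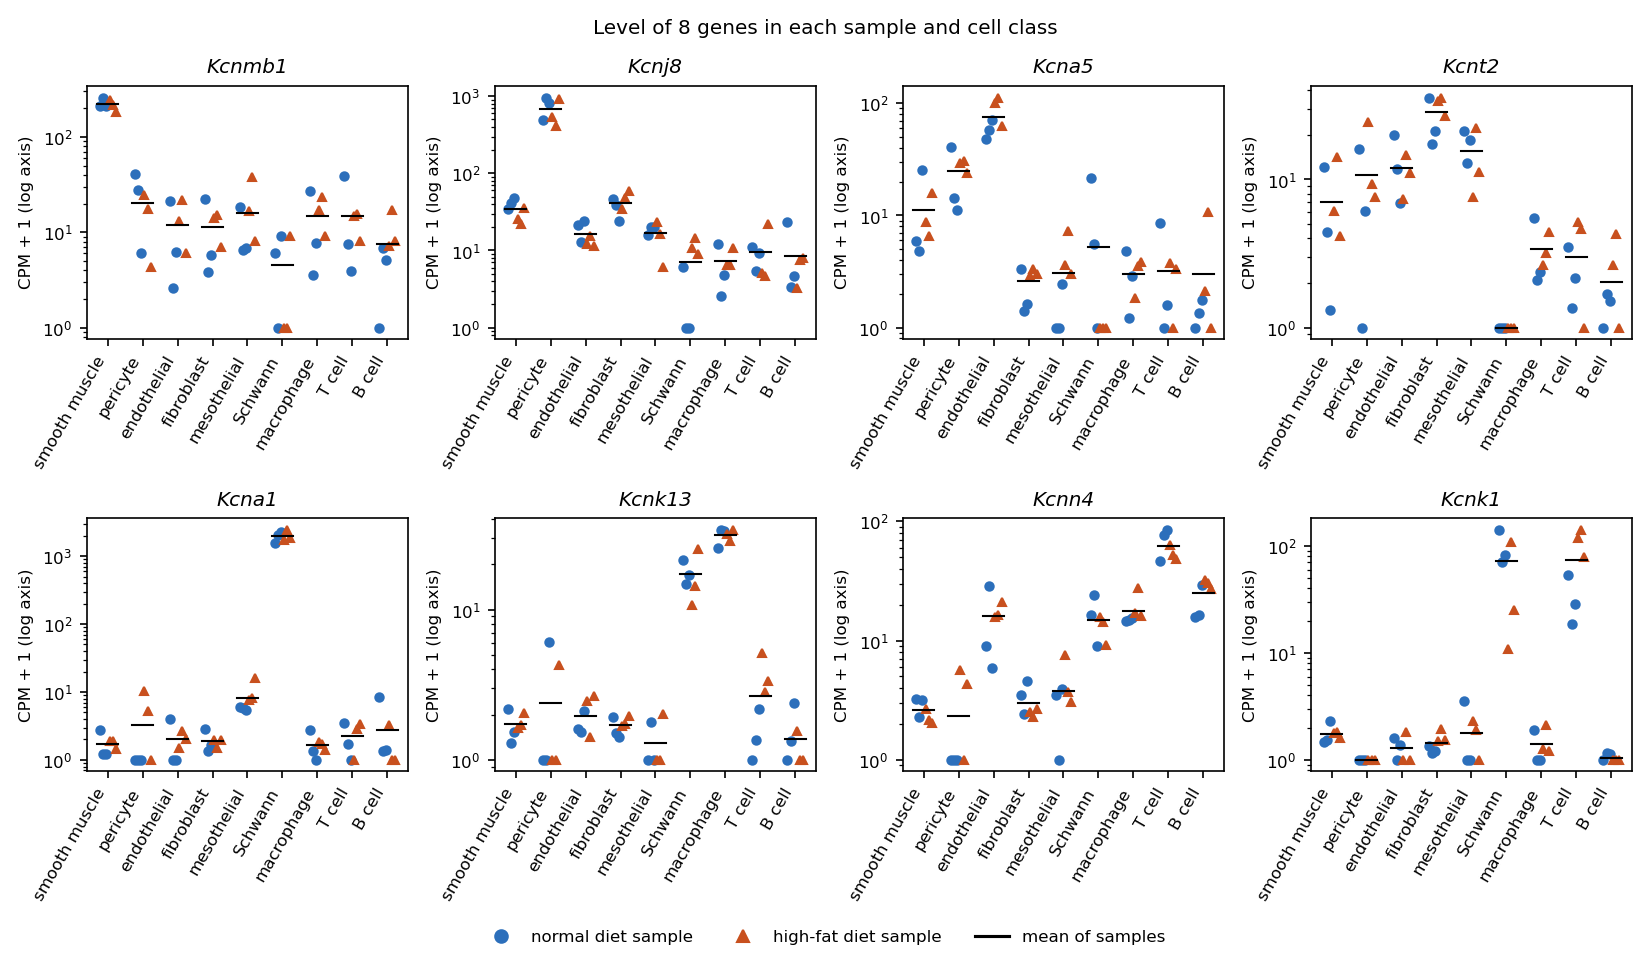
CPM + 1 (log axis) of 8 potassium channel genes in the 9 classes, with 1 point per sample (circles control, triangles high-fat diet) and a line for the mean of 6 samples. The points of the leading class stand apart for Kcnmb1 in smooth muscle (182 to 258 CPM) and Kcnj8 in pericytes (406 to 962 CPM), while Kcnk1 is high in both Schwann and T cells.

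The sulphonylurea receptor subunit Abcc9, which pairs with the Kcnj8 pore in the vascular KATP channel, was likewise highest in pericytes. It averaged 482 ± 132 CPM in pericytes, 108 ± 25.5 CPM in smooth muscle, 93.9 ± 28.0 CPM in fibroblasts and 14.7 CPM in endothelium. The 2 genes are neighbours on chromosome 6, both on the minus strand. A gap of 16.2 kb lies between the end of Abcc9 (chr6:142587862-142702315) and the start of Kcnj8. Neither gene was among the markers that define the classes.

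Smooth muscle cells were not uniform in their potassium channels. Cells were grouped by small gene sets chosen after earlier results of these data were known, so the values are a description with no test. In the 328 cells (2.97% of the class) rich in Sncg, Rgs4 and Pln, Kcna5, a delayed rectifier of arteries and atria, averaged 87.8 ± 29.8 CPM over samples (62.0 to 132). In the 9556 cells (86.6%) rich in Sost, Npnt and Itga8, Kcna5 averaged 6.67 ± 4.71 CPM (2.37 to 14.8). Kcnj12, an inward rectifier, showed 26.4 ± 7.42 CPM in the former and 2.52 ± 1.23 CPM in the latter. Neither gene overlapped between the groups, and the share of all genes that did not overlap was not worked out. The BK subunits differed little, with Kcnmb1 at 184 and 224 CPM and Kcnma1 at 30.5 and 37.1 CPM.

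In both samples numbered 3, 1 of each diet, smooth muscle had another balance of members. Kcnj15, an inward rectifier, stood at 31.6, 33.0 and 3.90 CPM in controls and 19.0, 31.0 and 3.93 CPM on high-fat diet. Kcnc4, a fast-activating voltage-gated pore, stood at 16.2, 20.7 and 1.73 CPM in controls and 14.5, 13.9 and 6.81 CPM on high-fat diet. Kcna5 ran the other way, at 4.94, 3.81 and 24.4 CPM in controls and 7.83, 5.57 and 15.0 CPM on high-fat diet. The third sample of each diet was thus the lowest for Kcnj15 and Kcnc4 and the highest for Kcna5. Within the Sost, Npnt and Itga8 cells alone the order was the same, with Kcnj15 at 33.4, 34.9 and 4.53 CPM in controls and 19.3, 31.9 and 4.34 CPM on high-fat diet. Kcna5 in those cells was at 3.53, 2.37 and 14.8 CPM in controls and 6.11, 3.76 and 9.49 CPM on high-fat diet. The Sncg, Rgs4 and Pln cells made up 2.07%, 1.71% and 6.73% of smooth muscle in controls and 2.14%, 2.64% and 3.66% on high-fat diet. They too were most frequent in the third sample of each diet, and their part in the sample differences was not tested beyond the values within the larger group.

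**Figure D3:**
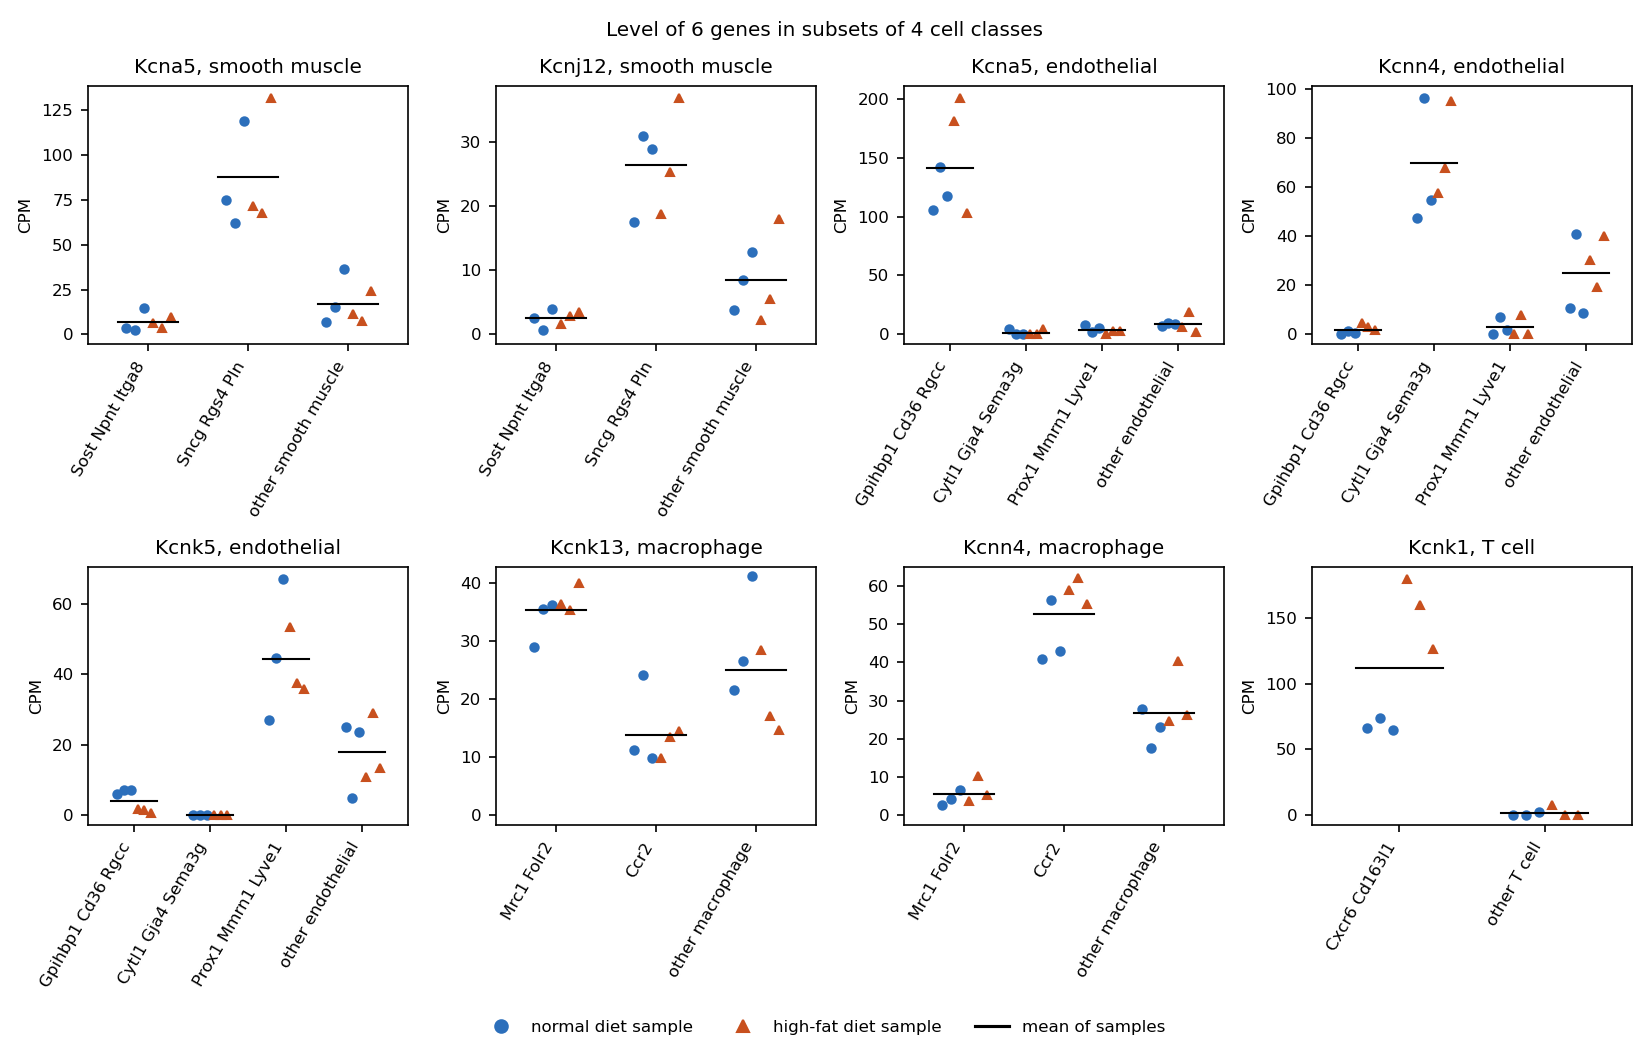
CPM of 6 potassium channel genes in groups of smooth muscle, endothelial, macrophage and T cells defined by gene sets (x axis), with 1 point per sample (circles control, triangles high-fat diet) and a line for the mean. Kcna5 is high in the Gpihbp1, Cd36 and Rgcc endothelial cells (103 to 201 CPM) and in the Sncg, Rgs4 and Pln smooth muscle cells (62.0 to 132 CPM).

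In endothelium the leading protein-coding member was Kcna5 (chr6:126532551-126535412, minus strand, GRCm38). It stood at 47.1, 56.6 and 69.3 CPM in controls and 99.8, 112 and 61.9 CPM on high-fat diet, and no sample of another class exceeded 39.8 CPM. Of the tested members 6 were higher in endothelium (26.3% of all genes tested were): Kcna5 by 4.45 (SE 0.25, adjusted p = 4.15e-20) and Kcnt2 by 1.81 (SE 0.44, adjusted p = 0.000593, edgeR) among them, with Kcnk5, Kcnn4 and Kcnk6. The difference of Kcnt2 was 0.30 and not called when classes were assigned by a plain marker count.

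The calcium-activated channels that carry endothelial hyperpolarisation were present at low levels. Kcnn3, the small-conductance pore, was at 7.68 ± 2.15 CPM (5.40 to 10.4), above fibroblasts, whose highest sample had 4.11 CPM. Kcnn4, the intermediate-conductance pore, was at 15.1 ± 8.19 CPM in endothelium, below its level in T and B cells. Kcnj2, the classical inward rectifier of endothelium, was at 2.60 ± 1.01 CPM there, 1.85 CPM in macrophages and 0.168 CPM in smooth muscle, and its 3.41 CPM in pericytes rested on 5 UMIs.

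Endothelial cells split by member as well, again as a description with no test. In the 1688 cells rich in Gpihbp1, Cd36 and Rgcc, genes of capillary endothelium, Kcna5 stood at 106, 142 and 117 CPM in controls and 181, 201 and 103 CPM on high-fat diet. In the 258 cells rich in Cytl1, Gja4 and Sema3g, genes of arterial endothelium, Kcnn4 averaged 69.8 ± 21.1 CPM (47.2 to 96.4), above its 15.1 CPM in the class as a whole. The same cells held Kcnt2, a sodium-activated pore, at 38.8 ± 12.5 CPM and Kcne3, an accessory subunit, at 21.6 ± 10.3 CPM. In the 352 cells rich in Prox1, Mmrn1 and Lyve1, genes of lymphatic endothelium, Kcnk5, an alkali-sensitive leak channel, averaged 44.3 ± 14.3 CPM (27.1 to 67.2) and Kcnn3 26.8 ± 10.3 CPM (16.1 to 40.7). Kcnk5 had no UMI in the Cytl1, Gja4 and Sema3g cells.

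Fibroblasts carried Kcnt2 at 27.5 ± 7.95 CPM (16.4 to 34.8) and Kcnk2, a stretch-sensitive leak channel, at 12.6 ± 4.61 CPM (8.54 to 19.5). Of the tested members 11 were higher in fibroblasts (30.4% of all genes tested were), led by Kcnk2 with 4.25 (SE 0.25, adjusted p = 1.39e-21), Kcnt2 with 3.48 (SE 0.26, adjusted p = 4.81e-16) and Kcns3 with 2.22 (SE 0.22, adjusted p = 1.23e-12, edgeR). Among fibroblast groups defined by gene sets, Kcnk2 was at 31.9 ± 19.1 CPM in cells rich in Thbs4, Cilp and Angptl1 (5 samples), and Kcnt2 at 42.4 ± 12.0 CPM in cells rich in Mmp3, Meox1 and Ccl19. Kcnj8 was at 89.0 ± 31.6 CPM in cells rich in Spon2 and Col23a1 (4 samples), above its 40.9 CPM in fibroblasts as a whole. These groups were chosen with earlier results known and were not tested.

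Mesothelium was marked by the A-type pores Kcnd2 and Kcnd3, which open briefly below the firing threshold in excitable cells. Kcnd2 stood at 27.7, 23.8 and 36.4 CPM in controls and 25.0, 27.6 and 8.13 CPM on high-fat diet. Its lowest sample was above the highest sample of any other tested class. Kcnd3 was at 25.3 ± 11.9 CPM, overlapping smooth muscle. In the class fit 7 of the tested members were higher in mesothelium (25.6% of all genes tested were): Kcnd2 by 8.11 (SE 0.39, adjusted p = 9.17e-19), Kcnd3 by 3.30 (SE 0.30, adjusted p = 7.68e-14) and Kcnt2 by 2.36 among them (edgeR). Kcnt2 averaged 14.6 CPM in mesothelium, below its 27.5 CPM in fibroblasts. Fibroblast markers summed to 5150 to 13812 CPM in mesothelial samples, against 13036 to 22126 CPM in fibroblast samples. Their part in the mesothelial levels was not tested.

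Schwann cells held the highest single levels of any protein-coding member. Kcna1, a low-threshold delayed rectifier of axons, stood at 1566, 2074 and 2255 CPM in controls and 1749.5, 2437 and 1859.7 CPM on high-fat diet. The next class, mesothelium, had at most 15.2 CPM of Kcna1. Kcna2, its usual partner in mixed channels, averaged 533 ± 187 CPM (334 to 773), and Kcna6 162 ± 65.1 CPM (92.4 to 259). Each of the 3 had all 6 Schwann samples above all samples of other classes. Kcnj10, the glial inward rectifier, was at 27.5 ± 23.1 CPM but rested on 23 UMIs, and Kcnj12 at 34.8 ± 15.8 CPM on 30 UMIs. In the class fit 11 of the tested members were higher in Schwann cells (13.3% of all genes tested were), led by Kcna1 with 10.30 (SE 0.15, adjusted p = 4.45e-44), Kcna6 with 8.54 (SE 0.28, adjusted p = 4.34e-30) and Kcnj10 with 8.07 (SE 0.79, adjusted p = 3.26e-10, edgeR). Kcna2 followed with 7.60 (SE 0.24, adjusted p = 5.92e-30, edgeR).

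The Kcna genes that led endothelium and Schwann cells are neighbours in the genome. On chromosome 6 of GRCm38, Kcna5 is followed after 105.0 kb by Kcna1 (chr6:126640397-126646384) and after a further 61.9 kb by Kcna6 (chr6:126708329-126740674), all on the minus strand. Kcna5 was at 74.4 CPM in endothelium and had 5 UMIs in Schwann cells, whereas Kcna1 was at 1990.1 CPM in Schwann cells and had 13 UMIs in endothelium. A second cluster on chromosome 3 holds Kcna3 (chr3:107036169-107038070), the delayed rectifier of lymphocytes, and 63.1 kb on Kcna2 (chr3:107101146-107115005). Kcna3 was highest in T cells at 6.24 CPM and in B cells at 3.86 CPM, and Kcna2 in Schwann cells. Within each cluster, adjacent genes thus had different leading classes, with Kcna1 and Kcna6 as the exception.

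Macrophages carried a pair of tandem-pore leak channels. Kcnk13, a halothane-inhibited channel known from microglia, stood at 24.6, 32.6 and 32.4 CPM in controls and 30.7, 27.4 and 32.9 CPM on high-fat diet. Kcnk6 stood at 20.5, 31.5 and 28.8 CPM in controls and 31.0, 18.3 and 32.7 CPM on high-fat diet. For both, all 6 macrophage samples were above every sample of the next class, Schwann cells for Kcnk13 (highest 24.4 CPM, 15 UMIs in all) and endothelium for Kcnk6 (highest 12.7 CPM). Of the tested members 5 were higher in macrophages (30.8% of all genes tested were): Kcnk13 by 4.77 (SE 0.16, adjusted p = 6.28e-33), Kcnj10 by 3.09 (SE 0.76, adjusted p = 0.000717) and Kcnk6 by 2.94 (SE 0.14, adjusted p = 3.34e-25, edgeR), then Kcnab2 and Kcnn4, while 10 were lower (26.6% of all genes tested). Kcnj10 had only 20 UMIs in macrophages, and DESeq2 did not call it (adjusted p = 0.321). Kcnn4 divided the macrophages: cells rich in Ccr2, the receptor of recruited monocytes, had 52.8 ± 8.76 CPM (40.8 to 62.1) and cells rich in Mrc1 and Folr2, genes of resident macrophages, had 5.46 ± 2.69 CPM. Kcnk13 ran the other way, at 13.8 ± 5.42 CPM in the former and 35.4 ± 3.60 CPM in the latter, and these groups were described without a test.

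In lymphocytes the intermediate-conductance channel Kcnn4, which sustains calcium entry during activation, was the leading calcium-activated member. It stood at 45.2, 76.2 and 83.7 CPM in control T cells and 62.6, 51.0 and 47.2 CPM on high-fat diet, and at 24.2 ± 7.22 CPM in B cells, where the highest sample had 31.1 CPM. T cells also held Kcnk1, a weakly rectifying leak channel, at 72.1 ± 49.0 CPM, and Kcnc1, a fast delayed rectifier, at 33.2 ± 21.8 CPM. Schwann cells had Kcnk1 at 71.5 ± 48.7 CPM, and the samples of these classes overlap. Of the tested members 6 were higher in T cells (27.2% of all genes tested were): Kcnc1 by 7.83 (SE 0.34, adjusted p = 1.3e-23), Kcnk1 by 6.93 (SE 0.29, adjusted p = 7.6e-26) and Kcnmb4, a BK beta subunit, by 4.66 (SE 0.55, adjusted p = 8.41e-10, edgeR), then Kcnn4, Kcnab2 and Kcnk5. Kcnk1 lay in 1 part of the T cells: the 719 cells rich in Cxcr6 and Cd163l1 had 112 ± 50.9 CPM, and the other 953 T cells had 1.60 CPM from 4 UMIs. In B cells 3 members were higher (30.7% of all genes tested were), Kcnn4 by 2.31 (SE 0.26, adjusted p = 9.21e-11), Kcnab2 by 2.25 (SE 0.20, adjusted p = 1.95e-14, edgeR) and Kcnq1ot1 by 0.29.

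Kcnq1ot1, the imprinted antisense RNA of the Kcnq1 locus, was seen in every class. It averaged 230.2 ± 38.2 CPM in fibroblasts (183 to 281) and 178 ± 49.5 CPM in mesothelium, and its lowest class mean was 60.2 CPM in Schwann cells. Its span (chr7:143203458-143296549, minus strand) is long and unspliced, and the strand setting of the counting is not given in the sources used here, so its reads cannot be told apart from those of overlapping genes. The same limit holds for Kcnmb4os2 and Kcnd3os, whose mean stayed at or below 2.50 CPM in every tested class.

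The shares of cells with at least 1 UMI show whether a level was carried by many cells. With each cell thinned to 1000 UMIs, Kcna1 was found in 81.4 ± 7.01% of Schwann cells and Kcnj8 in 45.1 ± 7.31% of pericytes, while B cells, which should lack both, had 0.0410% and 0.116%. Kcnmb1 was found in 19.0 ± 2.62% of smooth muscle cells against 1.03% of B cells, and Kcna5 in 8.53 ± 3.67% of endothelial cells against 0.385%. Kcnk1 was found in 5.20 ± 4.38% of T cells against 0.0154% of B cells. Without thinning, the shares were 94.6%, 67.0%, 71.3%, 24.8% and 18.6% in the same order of genes, at median depths of 2635 (Schwann), 3333 (pericyte), 6838 (smooth muscle), 3606 (endothelial) and 3535 (T cell) UMIs per cell, against 2527.5 in B cells. The B cell shares without thinning were 0.797%, 3.27%, 2.86%, 1.04% and 0.0154%.

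The second question of the design was whether the high-fat diet changed these genes. By edgeR, no member was called between diets in any class. Of 120 pairs of a member and a class tested with edgeR's quasi-likelihood test (Benjamini-Hochberg adjustment over all genes of the class), 0 were called and 11 (9.17%) had an unadjusted p under 0.05, against 10.6% of all gene and class pairs. DESeq2 called 1 pair, Kcnk1 in T cells, and 530 of all 76904 gene and class pairs. The share of all genes called by edgeR was 0% in smooth muscle, 0.425% in pericytes, 0.479% in endothelium, 0% in fibroblasts, 0% in macrophages, 0.113% in T cells, 0.318% in B cells, 0.145% in mesothelium and 0% in Schwann cells. On simulated counts of the same shape, changes were placed only in genes above a minimum mean level. A 2-fold change was recovered for 54% of changed genes in smooth muscle, 74% in fibroblasts and 77% in endothelium. It was recovered for 21% in T cells and 15% in Schwann cells, and a 4-fold change for at least 90% in each class. Many tested members lay below that level, such as Kcnn3 and Kcnk6 in endothelium, and recovery was not worked out for such genes.

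Among the BK channel and KATP genes of the mural cells edgeR called none between diets. Kcnmb1 in smooth muscle differed by -0.11 (high-fat minus control, log2, SE 0.17, adjusted p = 0.862, edgeR) and Kcnma1 by 0.12 (SE 0.29, adjusted p = 0.915, edgeR). Kcnj8 in smooth muscle stood at 33.1, 40.3 and 46.6 CPM in controls and 24.4, 20.8 and 34.7 CPM on high-fat diet, a difference of -0.62 (SE 0.25, unadjusted p = 0.0383, adjusted p = 0.521, edgeR). The groups overlapped by 1 sample each. In pericytes Kcnj8 differed by -0.31 (SE 0.33). Kcnk3 in pericytes was at 109.5, 114 and 143 CPM in controls and 89.3, 71.2 and 66.1 CPM on high-fat diet, without overlap, at -0.74 (SE 0.30, adjusted p = 0.535, edgeR). It was 1 of 4 tested members whose diet groups did not overlap in pericytes, where 13.8% of all genes did not. Smooth muscle had 0 of 32 such members (15.2% of all genes) and fibroblasts 0 of 35 (17% of all genes). Smooth muscle markers in the pericyte samples summed to 4268 to 8067 CPM in controls and 6473 to 12385 CPM on high-fat diet, and their part in the Kcnk3 values was not tested.

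Endothelium had 4 of 12 tested members without overlap (19.5% of all genes). Kcnk5 stood at 14.7, 14.01 and 22.4 CPM in controls and 10.8, 11.6 and 6.73 CPM on high-fat diet, at -0.90 (SE 0.29, adjusted p = 0.238, edgeR). Kcnn3 stood at 9.18, 9.16 and 10.4 CPM in controls and 5.87, 5.40 and 6.05 CPM on high-fat diet, at -0.77 (SE 0.29, adjusted p = 0.283, edgeR). Kcnk6, also without overlap, ran the other way at 6.12, 8.62 and 7.08 CPM in controls and 12.7, 10.4 and 11.1 CPM on high-fat diet, at 0.60 (SE 0.28, adjusted p = 0.389, edgeR). Kcna5 overlapped between diets, at 0.60 (SE 0.24, adjusted p = 0.322, edgeR). None of these passed the adjustment. The mix of endothelial cells also varied: the Gpihbp1, Cd36 and Rgcc cells, rich in Kcna5, made up 49.4%, 43.2% and 63.6% of the class in controls and 61.9%, 65.6% and 68.3% on high-fat diet. The Prox1, Mmrn1 and Lyve1 cells, rich in Kcnk5 and Kcnn3, made up 21.1%, 16.1% and 13.1% in controls and 11.5%, 11.8% and 9.36% on high-fat diet. The share of these cells, Kcnk5 and Kcnn3 were each lower in every high-fat diet sample than in every control. Among the controls alone, sample 3 had the lowest share of these cells and the highest Kcnk5 and Kcnn3. The part of this mix in the gene values was not tested.

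T cells gave the smallest diet p of any member. Kcnk1 stood at 52.7, 17.5 and 27.5 CPM in controls and 117, 140.1 and 78.0 CPM on high-fat diet, without overlap. Its difference was 1.69 (SE 0.28, unadjusted p = 8.97e-05, adjusted p = 0.0695, edgeR), while DESeq2 gave an adjusted p of 0.00385. Kcnc1 stood at 35.1, 7.65 and 10.5 CPM in controls and 57.1, 58.2 and 30.7 CPM on high-fat diet, overlapping by 1 sample, at 1.63 (SE 0.41, adjusted p = 0.195, edgeR). Kcnk1 and Kcnab2 were the 2 of 5 tested members without overlap in T cells (17.3% of all genes). The fit scales samples by TMM, and in T cells the median gene had a plain CPM ratio of 0.26 on the log2 scale (0.11 in B cells and at most 0.08 in the other classes). The fitted difference of Kcnab2 was 0.10 (SE 0.26, adjusted p = 0.899, edgeR). The Kcnk1 call depended on the processing and on single samples: without control sample 1 the adjusted p was 0.000159 and Kcnc1 (0.000777) and Kcnn4 (0.00424) were called as well, and without high-fat diet sample 2 the adjusted p of Kcnk1 was 0.572 (edgeR). The Cxcr6 and Cd163l1 cells, which held nearly all Kcnk1, made up 75.0%, 22.1% and 39.8% of T cells in controls and 61.2%, 86.4% and 62.6% on high-fat diet. Within these cells Kcnk1 was at 66.2, 73.7 and 64.8 CPM in controls and 180.1, 159.9 and 126 CPM on high-fat diet. Kcnc1 was at 44.1, 27.6 and 14.4 CPM in controls and 70.3, 66.4 and 49.8 CPM on high-fat diet. The share of all genes without overlap in these cells was not worked out, and the part of the cell mix was not tested. The T cell markers of the class summed to 2359 to 2653 CPM in control and 2998 to 3815 CPM in high-fat diet samples, and their part in these values was not tested. Markers of Schwann cells, the other class with Kcnk1, summed to 48.0 to 110.4 CPM in control T cells and 42.5 to 58.5 CPM on high-fat diet.

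**Figure D4:**
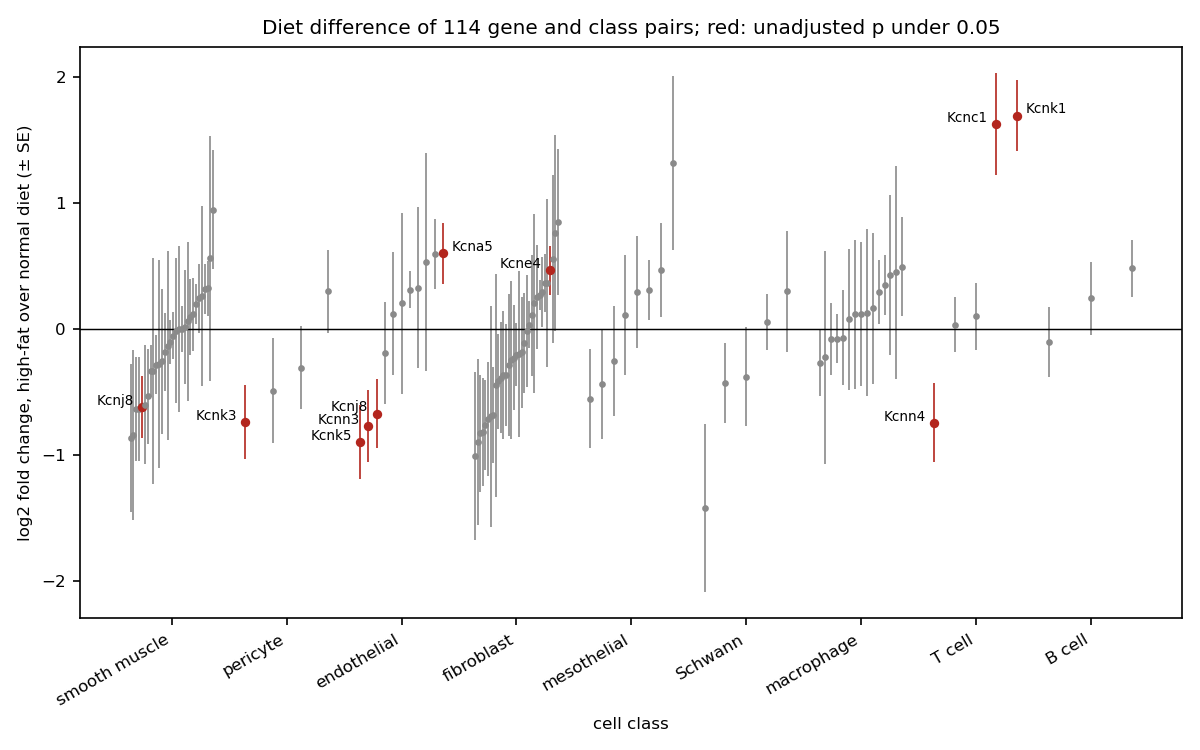
Log2 fold change of high-fat diet over control with its SE (y axis) for 114 pairs of a potassium channel gene and a class, ordered by size within each class (x axis). The 10 pairs with an unadjusted edgeR p under 0.05 are red and named, and Kcnk1 in T cells (1.69) is the highest point of these.

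**Figure D5:**
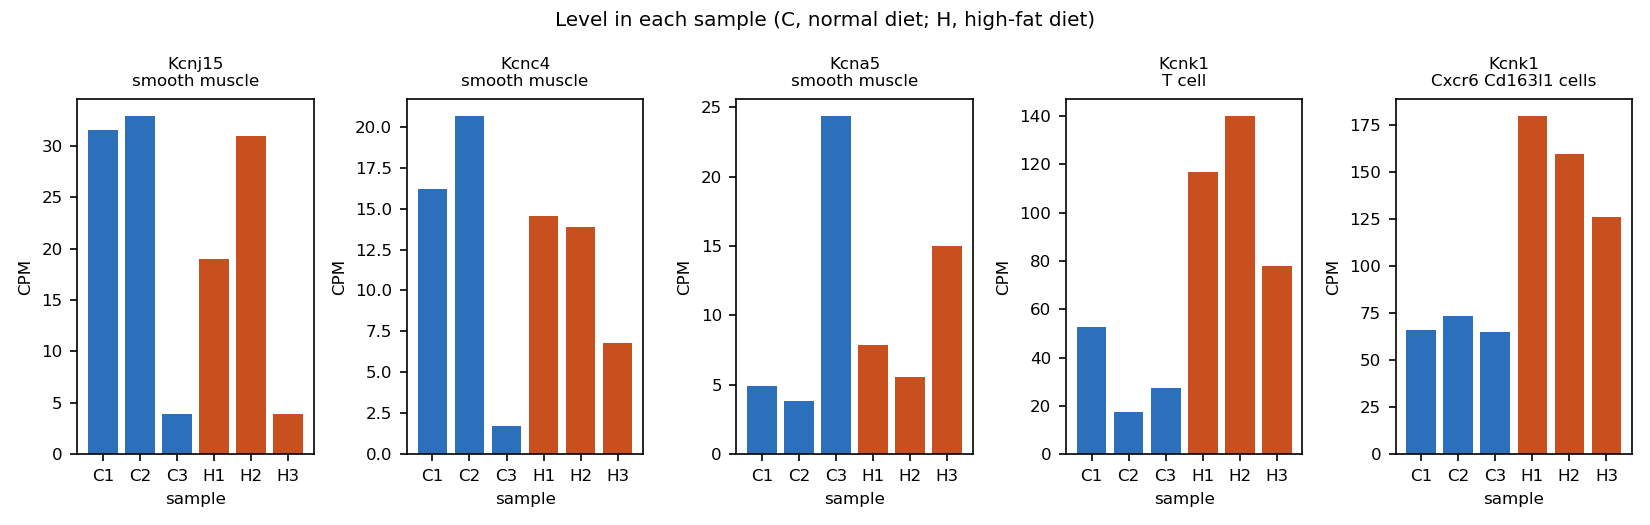
CPM in each sample (bars; C1 to C3 control, H1 to H3 high-fat diet) of Kcnj15, Kcnc4 and Kcna5 in smooth muscle and of Kcnk1 in all T cells and in the Cxcr6 and Cd163l1 cells. Samples C3 and H3 are the lowest of their diet for Kcnj15 and Kcnc4 and the highest for Kcna5, and all H samples exceed all C samples for Kcnk1.

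The remaining classes had fewer such members. In macrophages, 1 of 16 tested members did not overlap (14.5% of all genes), Kcnn4, at 13.7, 13.9 and 14.4 CPM in controls and 16.1, 26.7 and 15.2 CPM on high-fat diet. The Ccr2 cells, rich in Kcnn4, made up 10.1%, 10.8% and 10.7% of macrophages in controls. They made up 11.3%, 15.9% and 8.41% on high-fat diet, and their part in the Kcnn4 values was not tested. Kcng2, a silent subunit, had the other smallest macrophage p, at 2.97, 2.44 and 4.62 CPM in controls and 6.64, 4.02 and 4.04 CPM on high-fat diet. In fibroblasts Kcne4 was at 24.0, 14.9 and 15.5 CPM in controls and 28.1, 20.3 and 28.9 CPM on high-fat diet, at 0.46 (SE 0.19, adjusted p = 0.446, edgeR). Kcnq1ot1 in fibroblasts differed by 0.27 (SE 0.12, adjusted p = 0.465, edgeR) and Kcne4 in pericytes by -0.49 (SE 0.42, adjusted p = 0.801, edgeR), both with overlapping samples. No tested member was free of overlap in B cells (0 of 3, against 16.2% of all genes), mesothelium (0 of 8, 15.5%) or Schwann cells (0 of 5, 10.4%). Schwann markers in the Schwann samples summed to 15103 to 18014 CPM in controls and 6372 to 11386 CPM on high-fat diet, and their part in the levels there was not tested.

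Whether the diet acted differently between classes was tested by interaction terms in edgeR for smooth muscle, endothelium and fibroblasts. None of the 44 tested members was called in any of the 3 pairs of classes, and 0% of 14790 genes were called in each. At an unadjusted p under 0.05 there were 4 members for smooth muscle minus fibroblast (2.85% of all genes), 2 for smooth muscle minus endothelial (4.76% of all genes) and 1 for endothelial minus fibroblast (5.12% of all genes).

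Genes that work beside potassium channels were followed as listed groups. Of 14 channel partners and sodium pump subunits, 9 were tested in the class fit. Of all genes in that fit, 34.8% were higher and 26.9% lower in smooth muscle, and 12.1% and 11.4% in pericytes. The shares were 13.3% and 14.2% in Schwann cells, 25.6% and 18.4% in mesothelium, and 30.4% and 23% in fibroblasts. They were 26.3% and 21.2% in endothelium and 30.8% and 26.6% in macrophages. In T cells they were 27.2% and 30.5%, and in B cells 30.7% and 33%. Smooth muscle had 7 higher and 0 lower, with Atp1b2 at 2.58 and Abcc9 at 2.33 among them. Pericytes had 4 higher and 2 lower, led by Abcc9 at 4.41, Atp1b2 at 3.84 and the chloride importer Slc12a2 at 3.00. Schwann cells had 6 higher and 1 lower, led by the pump regulator Fxyd1 at 3.31, and mesothelium 4 higher and 3 lower, led by Atp1b1 at 4.30. Fibroblasts had 4 higher and 2 lower, endothelium 1 and 5, macrophages 2 and 6, T cells 1 and 7, and B cells 0 and 9. Between diets the only call of this group among 68 pairs of a gene and a class was Atp1b1, a pump beta subunit, in pericytes (2.02, SE 0.41, adjusted p = 0.0308, edgeR), which DESeq2 did not call. Of all gene and class pairs, edgeR called 0.14%.

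Of 21 calcium entry and store genes, 18 were tested in the class fit. The shares of all genes given above for each class hold here too. Smooth muscle had 13 higher and 3 lower, with the calcium channel subunits Cacna2d1 at 2.92, Cacnb2 at 3.25 and Cacna1c at 2.75, and the store pump Atp2a2 at 1.99. Pericytes had 10 higher and 2 lower, with the calcium-activated chloride channel Ano1 at 4.13 and Cacna1c at 3.61 among them. Endothelium had 7 higher and 6 lower, fibroblasts 6 and 4, mesothelium 5 and 3, macrophages 3 and 9, T cells 3 and 10, B cells 2 and 11, and Schwann cells 0 and 2. Between diets edgeR called 0 of 94 pairs of a calcium gene and a class, with 9 at an unadjusted p under 0.05, and DESeq2 called 0. Of all gene and class pairs, 10.6% had an unadjusted edgeR p under 0.05. Adipocyte marker genes had negative diet differences for every tested marker in smooth muscle (5), endothelium (4), fibroblasts (6), macrophages (3), T cells (2) and B cells (1). Of these 21 pairs edgeR called 0, with 6 at an unadjusted p under 0.05, and DESeq2 called 3, all of the gene Cfd. Their part in the diet values of the potassium channel genes was not tested. Of 36 pairs for the 4 haemoglobin genes, 0 were called by edgeR or DESeq2 and 0 had an unadjusted p under 0.05.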

How the data were processed

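Single-cell RNA sequencing was measured in 6 aorta samples, 3 control and 3 high-fat diet, grouped by their treatment label. The authors deposited raw UMI counts per gene and cell barcode, made with Cell Ranger 3.0 on mm10 per the submitters' processing notes. The strand setting and annotation release are not given in the sources used here. Depth was 41388034 to 83886418 UMIs per sample, and intervals or floors (3 counts) cover counting error only. No column of per-sample values was left unused (0).

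Cells with at least 300 genes and under 20% mitochondrial UMIs were kept (59413 of 62838). Scrublet (scanpy 1.11.5, expected rate 0.06, score limit 0.25, run per well) removed 1379 doublets (2.32%). Classes were assigned from fixed markers. The planned rule, a minimum marker count with cells of several classes set aside as mixed, left 41.9% of cells as mixed (90.2% in control sample 1), so the assignment departed from it. In the version used, a negative binomial likelihood (size 1) compared each cell with 16 class profiles and their pair mixes plus a background share of 0.02 to 0.5 of its well's mean profile, and the minimum marker counts still applied. It was the last of 3 versions, chosen on cell yield and marker purity before Kcn values were viewed in it, and it left 11.4% mixed and 6.16% unassigned. Dendritic and erythroid cells got no profile. Trac, Trbc2 and Cnmd, 3 of the markers, had no row in the gene table.

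UMI counts were summed per sample and class and tested with edgeR 4.0.16 (R 4.3.3; quasi-likelihood, robust, TMM, default filter on low counts, Benjamini-Hochberg at 0.05). Diet was tested within each class, classes in a joint fit with samples as blocks, and diet by class in a joint fit of smooth muscle, endothelium and fibroblasts. DESeq2 1.42.0, other filters and normalizations, each well alone, leaving out each sample, a replicate block and, chosen after seeing the data, the gate as first written were alternatives. The scripts were checked on simulated counts with 200 changed genes in each comparison.

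Named members were the 3 highest per class, the 3 largest called class differences, the 2 smallest diet p-values in 5 classes and 11 textbook vascular channels. Other named members, the cell groups within classes, the 3 motifs, the pattern of samples numbered 3 and the T cell genes beyond Kcnk1 were chosen after their values were seen. The members and lists were chosen with earlier results of these data known. Results of 4 genes in these lists are not reported here, and the plots leave them out, while counts over genes include them. Gene positions are from GENCODE vM21 (GRCm38). Figures were drawn with matplotlib 3.10.9.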

Additional observations from a re-analysis of the deposited data

How the results depend on the processing

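The count of member and class pairs called between diets, 0 by edgeR, was 3 with no filter on low counts, 1 with DESeq2, 1 with at least 1000 genes per cell and 0 to 3 when single samples were left out. The 3 came from leaving out control sample 1 and were Kcnk1, Kcnc1 and Kcnn4 in T cells. Without a filter on low counts, more members than the 33 of the filtered fit were tested. The members higher in a class then numbered 12 in endothelium, 22 in fibroblasts, 12 in macrophages, 10 in T cells, 6 in B cells and 11 in mesothelium. The share of all genes called in that fit was not worked out, so these counts have no background to be read against. Leaving out single samples gave 17 to 18 in smooth muscle, 5 to 6 in pericytes, 6 to 7 in endothelium, 9 to 12 in fibroblasts, 5 in macrophages, 6 to 7 in T cells, 2 to 4 in B cells, 6 to 8 in mesothelium, 10 to 12 in Schwann cells, 9 to 12 for smooth muscle against pericytes and 0 for the interactions. The gate as first written, added after seeing the data, gave 15 in smooth muscle, 4 in endothelium, 8 in fibroblasts and 4 in macrophages. It gave no value for the diet test in 5 classes. The shares of cells with a UMI rose with depth. Thinned to 2000 UMIs they were 34.7% for Kcnmb1, 14.5% for Kcna5, 91.0% for Kcna1 and 10.5% for Kcnk1, and without thinning 71.3%, 24.8%, 94.6% and 18.6%, with 67.0% for Kcnj8. The sign of the diet difference turned, on values that no test called, for Kcne4 in pericytes without control sample 2 (0.061, with a range of -0.83 to 0.061 when single samples were left out), Kcnq1ot1 in fibroblasts (-0.034) in well 2 alone, and Kcnn4 in macrophages with the first gate (-0.062). The cause was not tested.

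The deviations of samples with the same replicate number correlated, in smooth muscle, at -0.13 for number 1, 0.05 for number 2 and 0.37 for number 3. Number 3 was positive in 8 of 9 classes. The highest correlation between samples of different numbers across diets was 0.46 in smooth muscle. In every class except pericytes, this highest value exceeded that of number 3. No class had all 3 same-number correlations above 0.1, so the numbers were not taken to pair the samples. With the replicate number as a block, the count of diet calls was 0, and the adjusted p of Kcnk1 in T cells was 0.182 (edgeR).

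Precision was limited by 3 samples per diet, by 349 pericytes and 286 Schwann cells, and by class names resting on markers alone.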

Other observations

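Some marker classes had fewer than 20 cells in a sample and entered no comparison. Their UMIs were pooled over the 6 samples, so the values carry no spread and no test. The 166 cardiomyocyte-like cells held Kcnk3 at 58.4 CPM (42 UMIs), the silent subunit Kcng2 at 40.3 CPM (29 UMIs), Kcnj3 at 27.8 CPM (20 UMIs), Kcnh2 at 25.0 CPM (18 UMIs), Kcnj5 at 22.3 CPM (16 UMIs) and Kcnip2 at 13.9 CPM (10 UMIs). Kcnj3 and Kcnj5 form the acetylcholine-gated rectifier of the atria, and Kcnip2 joins Kcnd pores in heart muscle. The 220 chondrocyte-like cells held Kcnma1 at 40.9 CPM (60 UMIs) and Kcna6 at 35.4 CPM (52 UMIs). Kcna6 was thus seen outside Schwann cells in this class.

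The 215 plasma cell-like cells held Kcnn4 at 168 CPM (270 UMIs), against 24.2 CPM on average in B cells. They also held the noncoding Kcnmb4os2 at 61.4 CPM (99 UMIs) and Kcnmb4 at 14.9 CPM (24 UMIs), its coding neighbour on the opposite strand, and reads of the 2 cannot be told apart without strand. The 159 epithelial-like cells held Kcnk2 at 50.7 CPM (96 UMIs), Kcnk1 at 29.6 CPM (56 UMIs), Kcne3 at 20.6 CPM (39 UMIs) and Kcnj13, an epithelial rectifier, at 20.6 CPM (39 UMIs). The 192 skeletal muscle-like cells held Kcnj12 at 27.5 CPM (52 UMIs) and Kcnn1 at 9.54 CPM (18 UMIs).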
